A study of Mus musculus with 64 samples.

Results

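The clustered protocadherins are cadherin-like adhesion proteins whose genes lie in 3 neighbouring arrays, alpha, beta and gamma, on mouse chromosome 18. Members were taken by symbol: every gene of the brain tables named Pcdha, Pcdhb, Pcdhga, Pcdhgb or Pcdhgc with a member number, 58 genes of 16673 measured in at least 1 brain region. They comprised 14 alpha, 22 beta and 22 gamma genes. Hippocampus and hypothalamus had values for 58 members of 15573 and 16155 genes, and prefrontal cortex for 57 of 15697 (Pcdhb1 was not analysed here in that region).

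The animals were male BALB/c mice aged 28 weeks, either left unstressed (control) or exposed for 9 weeks to unpredictable chronic mild stress (UCMS), a paradigm of varied mild stressors used to model depression. The same 16 animals, 8 control and 8 UCMS, gave prefrontal cortex, hippocampus and hypothalamus, which makes 48 brain libraries of the 64 in the series. Stressed animals were sampled 14 to 16 h after their last stressor, between ZT12.5 and ZT14.5 (hours of zeitgeber time, counted from lights on). Each library came from 100 ng of total RNA after removal of ribosomal RNA, and each animal counts as 1 replicate.

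Each neuron expresses its own mixture of clustered protocadherins, and the extracellular domains bind like to like between membranes, which lets a neuron tell its own branches from those of others. In the alpha and gamma arrays, a variable exon with its own promoter encodes the whole extracellular part and is spliced to constant exons shared by the array, which encode a common intracellular end. Beta genes have no such constant exons. Most isoforms are chosen at random per cell through promoter methylation and CTCF/cohesin looping, while the C-type isoforms (Pcdhac1, Pcdhac2, Pcdhgc3, Pcdhgc4 and Pcdhgc5) are under more regular control.

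The shared exons bear on what a value can show. In the GENCODE M21 models on GRCm38, the alpha genes spanned chr18:36930184-37187661, the beta genes chr18:37264938-37524479 and the gamma genes chr18:37661793-37841873. Each of the 14 alpha models shared at least 2860 exonic bases with other alpha models, beside a median of 2494 bases of its own. The 22 gamma models shared at least 2116 bases, beside a median of 2629.5 of their own. Pcdhga4 and Pcdhgb1 shared more, 3157 and 3154 bases, as did Pcdhga8 and Pcdhgb4 with 2227 and 2224. Among the beta genes, only Pcdhb21 and Pcdhb22 overlapped, by 455 bases.

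In whole blood the gamma rows were almost equal. The 22 gamma genes had values there, and 21 of them were identical in all 16 blood libraries. In 14 libraries all 22 were equal, and in the other two Pcdhga9 was lower than the rest. The single gamma value ranged from 2.70 to 3.82 on the log2 scale in 7 control libraries (median 3.30) and from 2.13 to 3.25 in 9 UCMS libraries (median 2.59), and the groups overlapped. It was not tested. The gamma models run from 4615 to 7627 exonic bases, a spread of 0.725 on the log2 scale, so equal values do not look like values divided by gene length. An alpha or gamma value in brain is read here as a row holding the shared exons plus 1 isoform. That reading is an assumption, since the counting and the annotation are not given. It does not account for the lower Pcdhga9 value, and blood had no alpha rows to compare. The models of Pcdhga4, Pcdhgb1, Pcdhga8 and Pcdhgb4 also hold bases of another gamma model's isoform. The rows of an array are not independent of each other. Beta genes are close paralogs, and reads that fit several of them are likewise uncertain.

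Facts of the libraries bear on all results. Values were log2 and had been set to nearly the same distribution within each tissue table but apart from the other tables, so levels in different regions are set side by side without a test. The hypothalamus-defining list had values for 14 of 15 genes in hypothalamus and for 3 of 15 in either of the other regions. All 9 hippocampus-defining genes had values in hippocampus and 6 of 9 elsewhere. The 7 prefrontal cortex genes (Tbr1 and others) averaged 5.34 in prefrontal cortex controls and 5.30 in hippocampus controls, so that list did not separate these tissues, against 4.09 in hypothalamus controls. The hemoglobin gene Hbb-bs lay between 14.0 and 14.6 in 2 prefrontal, 3 hippocampal and 4 hypothalamic libraries and between 4.02 and 9.63 in the others. In bulk tissue, fewer cells of a type and less RNA per cell cannot be told apart.

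In control animals, the median member of each array was among the more abundant genes of its region. The mean over the 22 gamma rows was 8.25 ± 0.12 (SD, n = 8) for prefrontal cortex, 8.21 ± 0.05 for hippocampus and 7.99 ± 0.10 for hypothalamus. The mean over the 14 alpha rows was 6.58 ± 0.15, 6.52 ± 0.12 and 6.30 ± 0.10 in the same order. For the 21 beta genes measured in every region the means were 6.21 ± 0.13, 6.27 ± 0.08 and 6.14 ± 0.08. In hypothalamus controls the median member lay at percentile 88.5 of all genes for alpha, 84.8 for beta and 96.5 for gamma. On the reading above, these means carry the shared exons in alpha and gamma, so they do not rank the arrays by protein-coding output.

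**Figure D1:**
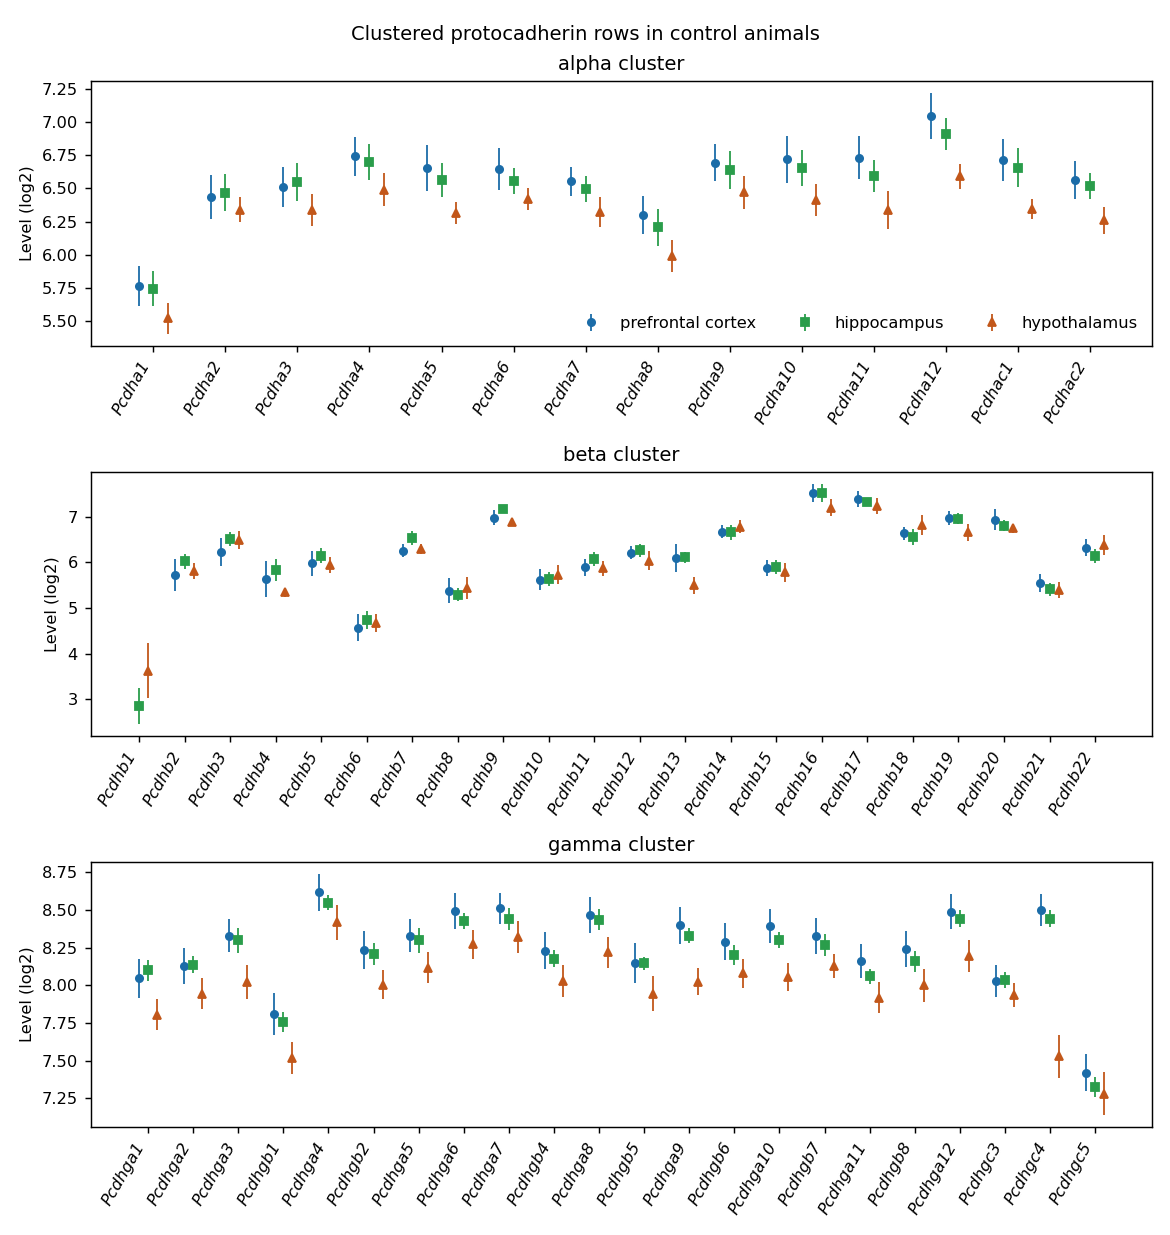
Level of each member (log2, y axis) in control animals of prefrontal cortex, hippocampus and hypothalamus, with genes in chromosomal order along the x axis and 1 panel per array. Points are means and bars SDs of 8 animals. The Pcdhgc4 point for hypothalamus, 7.53, stands 0.97 below that for prefrontal cortex, while the alpha points for hypothalamus lie below those of the other regions throughout.

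The alpha rows were all lower in hypothalamus than in the other regions, by a small amount. The difference from prefrontal cortex ran from -0.45 for Pcdha12 to -0.10 for Pcdha2, with a median of -0.28 over 14 rows, while the median over all genes was 0.13. Against hippocampus the alpha median was -0.22. No alpha row had all 8 hypothalamus controls below all 8 prefrontal controls, against 5.43% of all genes. Pcdha12 alone lay wholly below hippocampus, where 9.24% of all genes did. Taking the groups of animals as a whole, no member of the 3 arrays had hippocampus and prefrontal cortex without overlap, where 2.15% of genes lay wholly lower and 4.75% wholly higher in hippocampus. Within animals, Pcdhb22 was lower in hippocampus than in prefrontal cortex in 8 of 8, by 0.181 ± 0.104, as were 4.92% of all genes. Hypothalamus was below prefrontal cortex in 8 of 8 animals for 4 of 14 alpha rows, 0 of 21 beta genes and 21 of 22 gamma rows, against 9.87% of all genes. Below hippocampus in 8 of 8 were 8 of 14 alpha rows, 3 of 21 beta genes and 19 of 22 gamma rows, against 13.7% of all genes. Rows of an array share exons, so these counts are not of separate measurements. In prefrontal cortex, hippocampus and hypothalamus controls the myelin genes averaged 6.15, 6.10 and 6.88, and the astrocyte genes 6.27, 6.53 and 6.86. Relative to the pan-neuronal mean of the same library, the alpha mean was -0.534 ± 0.048, -0.623 ± 0.106 and -0.873 ± 0.110. The gamma mean was 1.144 ± 0.150, 1.066 ± 0.055 and 0.819 ± 0.118. The part of cell composition in the regional differences was not tested.

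Pcdha12 was the highest alpha row in each region and Pcdha1 the lowest. Pcdha12 in control prefrontal cortex ranged from 6.67 to 7.22 (median 7.06), in hippocampus from 6.76 to 7.13 (median 6.90) and in hypothalamus from 6.44 to 6.73 (median 6.57). Relative to the median alpha row of the same library, which removes shifts common to the array, Pcdha12 stood at 0.397 ± 0.066, 0.337 ± 0.045 and 0.234 ± 0.038 (SD, n = 8 each). Pcdha1 was the lowest alpha row in all 16 libraries of each region, at -0.88, -0.83 and -0.83 relative to that median. Pcdha4 was the second highest row and Pcdha8 the second lowest in all 3 regions. Divided by exonic length, Pcdha12 remained highest in prefrontal cortex at 4.63 (log2 per kilobase) and Pcdha1 lowest at 3.35.

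Of the C-type alpha rows, Pcdhac1 averaged 6.71 ± 0.16 for prefrontal cortex, 6.65 ± 0.15 for hippocampus and 6.35 ± 0.07 for hypothalamus. Relative to the median alpha row it stood at 0.064 ± 0.048, 0.083 ± 0.038 and -0.009 ± 0.037. Pcdhac2, which is needed for serotonergic axons to spread evenly over their targets in mice, averaged 6.56 ± 0.14, 6.52 ± 0.10 and 6.26 ± 0.10. Its position relative to the median row was -0.082, -0.056 and -0.096, each with an SD of 0.038 to 0.047 and with overlapping ranges of mean ± SD. While Pcdha12 fell, Pcdha2 rose from -0.209 ± 0.041 in prefrontal cortex to -0.104 ± 0.034 in hippocampus and -0.015 ± 0.051 in hypothalamus. Pcdha3 was likewise lowest in prefrontal cortex, at -0.135 ± 0.028, against -0.022 ± 0.042 in hippocampus and -0.017 ± 0.045 in hypothalamus.

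Beta genes, which are measured without shared exons, differed more among themselves. Per kilobase of exon, Pcdhb9 was the highest in each region, at 5.37 for prefrontal cortex, 5.56 for hippocampus and 5.27 for hypothalamus. Pcdhb6 was the lowest beta gene in prefrontal cortex at 2.66 per kilobase, and Pcdhb1 the lowest in hippocampus at 1.48 and in hypothalamus at 2.25. As deposited, Pcdhb16 and Pcdhb17 were the highest beta genes in every region. Pcdhb16 averaged 7.52 ± 0.20 in prefrontal cortex and in hippocampus and 7.20 ± 0.18 in hypothalamus. Pcdhb1 averaged 2.85 ± 0.40 in hippocampus and 3.62 ± 0.60 in hypothalamus, at percentiles 6.53 and 24.8 of all genes. Pcdhb8 was the second lowest in prefrontal cortex, at 5.38 ± 0.28.

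Over 21 beta genes the median difference of hypothalamus from hippocampus was -0.119, with 16 genes lower, while the median over all genes was 0.0902. Pcdhb13 ranged from 5.47 to 6.46 in prefrontal controls, from 5.83 to 6.24 in hippocampal controls and from 5.11 to 5.70 in hypothalamic controls. It was lower in hypothalamus than in hippocampus in 8 of 8 animals, by 0.61 ± 0.24 (SD of the within-animal difference), with no overlap. Pcdhb9 likewise lay wholly lower in hypothalamus than in hippocampus, by 0.29 ± 0.07. Pcdhb4 was lower in 8 of 8 animals as well, by 0.490 ± 0.191. Pcdhb18 and Pcdhb22 went the other way, with hypothalamus above hippocampus in 8 of 8 animals by 0.261 ± 0.212 and 0.240 ± 0.205. Lower in 8 of 8 animals were thus 3 of 21 beta genes, against 13.7% of all genes, and higher in 8 of 8 were 2, against 24.7%. Pcdhb13 and Pcdhb9 were the 2 of 21 beta genes wholly lower in hypothalamus than in hippocampus, against 9.24% of all genes, and none was wholly higher, against 13.3%.

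Gamma rows were lower in hypothalamus than in prefrontal cortex in 22 of 22 cases. The median difference was -0.226, while the median over all genes was 0.127, and Pcdhgc4 was far apart from the rest. Pcdhgc4, the isoform required for survival of cortical interneurons after birth in mice, ranged from 8.31 to 8.65 in prefrontal controls (median 8.50). In hippocampal controls it ranged from 8.38 to 8.54 (median 8.42). In hypothalamic controls it ranged from 7.38 to 7.81 (median 7.50). The hypothalamus values lay wholly below both other regions. The hypothalamus mean was 0.97 ± 0.12 lower than that of prefrontal cortex and 0.91 ± 0.12 lower than that of hippocampus, in 8 of 8 animals each. It was the only gamma row of 22 wholly below prefrontal cortex, against 5.43% of all genes.

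Positions within a library put Pcdhgc4 on the other side of the gamma median in hypothalamus. Relative to the median gamma row of the same library it stood at 0.204 ± 0.015 for prefrontal cortex, 0.204 ± 0.043 for hippocampus and -0.493 ± 0.066 for hypothalamus (SD, n = 8 each). Pcdhga4, the highest gamma row in each region, stood at 0.319 ± 0.042, 0.312 ± 0.029 and 0.396 ± 0.034. On the reading that each row holds the shared exons, taking the lowest gamma row, Pcdhgc5, away in linear units removes what both rows share. The subtraction also takes away the Pcdhgc5 row's own isoform part. The excess is therefore a difference between rows and not the level of an isoform alone. The Pcdhgc4 excess was then 191 ± 15 for prefrontal cortex, 187 ± 11 for hippocampus and 29.3 ± 15.8 for hypothalamus. The Pcdhga4 excess, which can hold bases of another gamma model as well, was 222 ± 21, 214 ± 9 and 187 ± 23 in the same libraries.

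**Figure D2:**
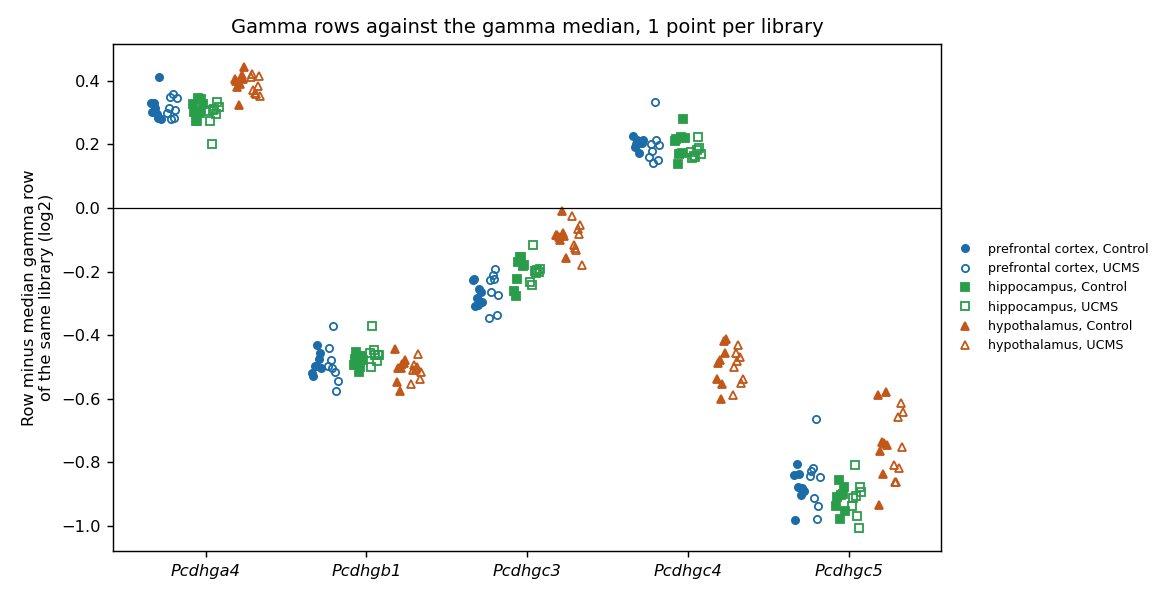
Level of 5 gamma rows minus the median gamma row of the same library (log2, y axis), with 1 point per library, filled for control and open for UCMS, in prefrontal cortex, hippocampus and hypothalamus. Pcdhgc4 lies between 0.138 and 0.279 in hippocampal controls and between -0.600 and -0.414 in hypothalamic controls.

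The other C-type gamma rows had smaller regional differences. Pcdhgc3, whose intracellular part binds Axin1 and dampens Wnt signalling in mice, averaged 8.03 ± 0.10 for prefrontal cortex, 8.04 ± 0.05 for hippocampus and 7.93 ± 0.08 for hypothalamus. Relative to the median row it stood at -0.270 ± 0.034 for prefrontal cortex, -0.200 ± 0.048 for hippocampus and -0.086 ± 0.040 for hypothalamus. Pcdhgc5 averaged 7.42 ± 0.12, 7.32 ± 0.07 and 7.28 ± 0.14 and was the lowest gamma row in all 48 brain libraries. Pcdhgb1 was the second lowest in prefrontal cortex, at 7.81 ± 0.14, and in the other regions as well. Pcdhga9 was the second gamma row, beside Pcdhgc4, that lay wholly below hippocampus in hypothalamus, by 0.31 ± 0.09. That made 2 of 22 gamma rows, against 9.24% of all genes.

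UCMS was then compared with control in each region by limma on all genes, with Benjamini-Hochberg adjustment. No member passed an adjusted p of 0.05 in any region, and the background share of genes called was 0% in each. The smallest adjusted p over all genes was 0.987 for prefrontal cortex, 0.990 for hippocampus and 0.99999 for hypothalamus. At an unadjusted p under 0.05, 308 of 14127 genes (2.18%) were found in prefrontal cortex, 414 of 14015 (2.95%) in hippocampus and 308 of 14539 (2.12%) in hypothalamus. Among the members that count was 0 of 57, 0 of 57 and 1 of 58 (1 hippocampal member, Pcdhb1, was below the filter on low values). These shares were at or under the background, but the hippocampal one depended on the fit. Without UCMS replicate 6 it was 9 of 57 (15.8%) against 688 of 14015 genes (4.91%), all 9 of them gamma rows. With array quality weights it was 12 of 57 (21.1%) against 927 genes (6.61%), with 7 gamma rows and 5 beta genes. A pan-neuronal score was the mean of the pan-neuronal genes, each first scaled over the libraries of its region. With that score as a covariate the hippocampal count was 7 of 57 (12.3%), all gamma rows, against 570 genes (4.07%). All of these members were numerically higher after UCMS, none passed the adjusted threshold, and gamma rows share exons.

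**Figure D3:**
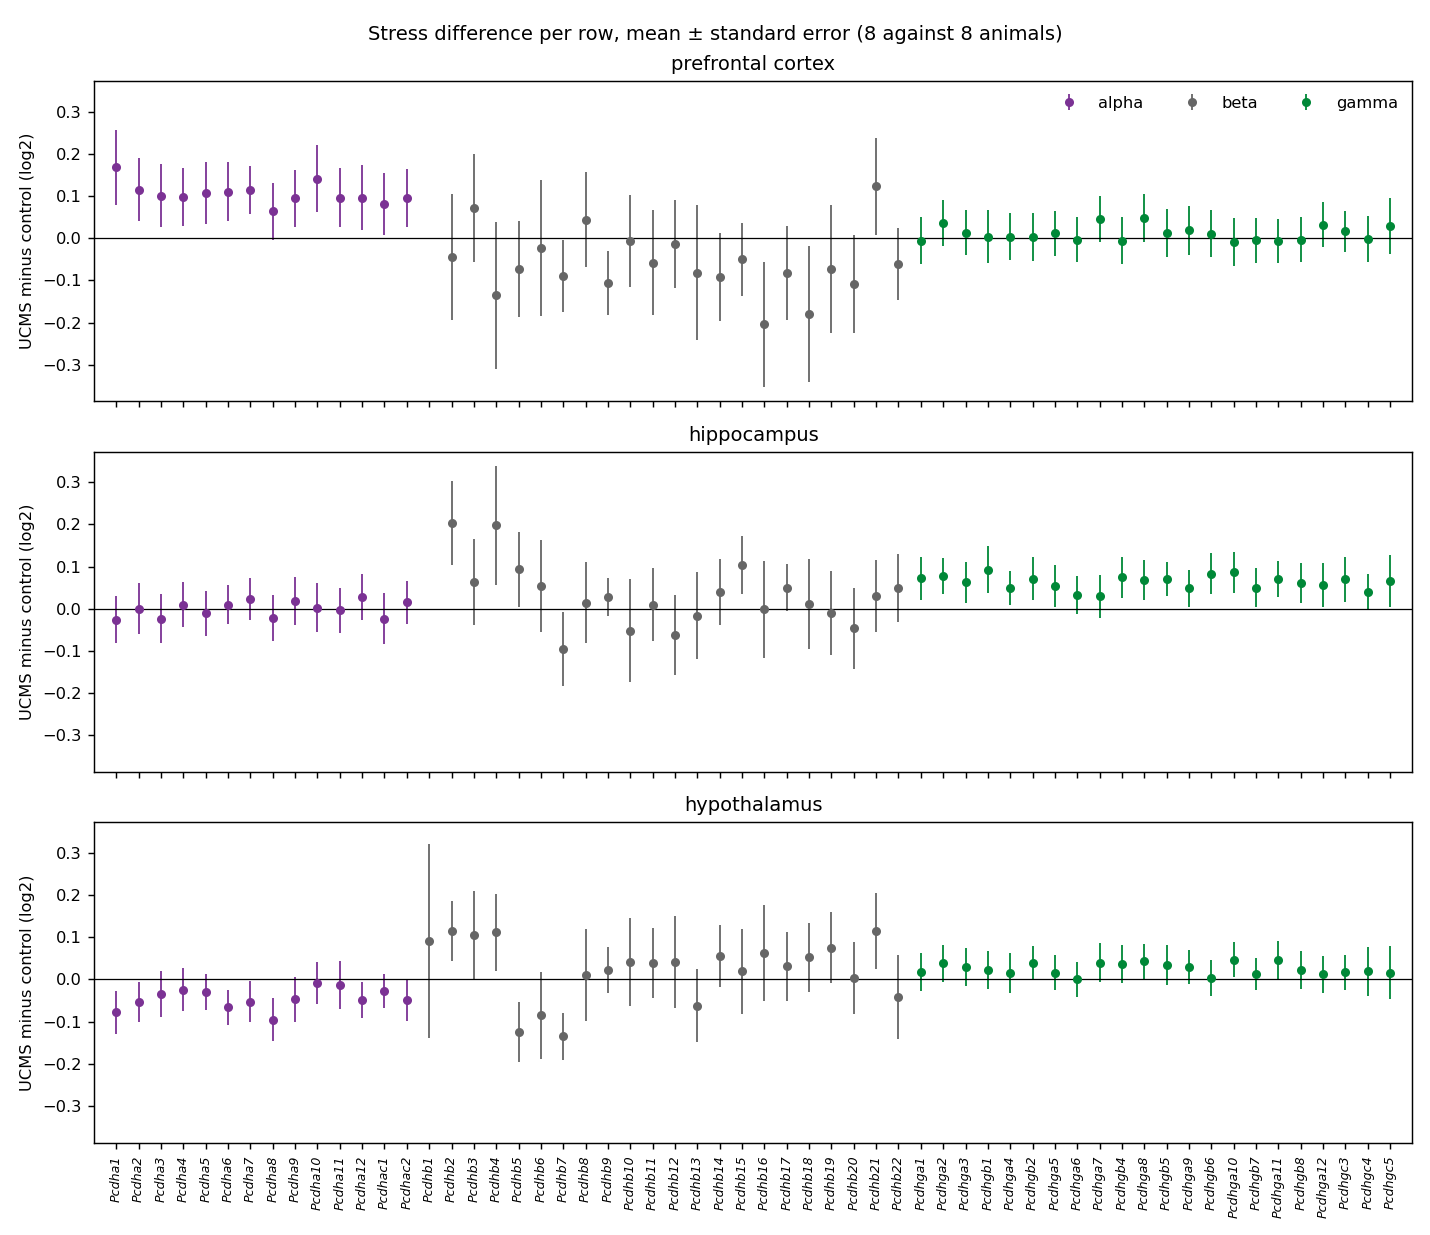
UCMS minus control difference (log2, y axis) for each member in chromosomal order, with 1 panel per region. Points are differences of means and bars standard errors from limma on 8 against 8 animals, with alpha, beta and gamma coloured apart. Alpha points lie above 0 in prefrontal cortex and below 0 in hypothalamus, and none passed the adjusted threshold.

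In prefrontal cortex the alpha mean was numerically higher after UCMS in 14 of 14 rows, against 52% of all genes. The median difference was 0.0988 with a range from 0.0634 to 0.168, while the median over all genes was 0.0056. Pcdha7 in controls ranged from 6.31 to 6.63 (median 6.58) and in UCMS from 6.50 to 6.77 (median 6.69), and the groups overlapped. Its difference was 0.114 ± 0.057 (SE, limma adjusted p = 0.987). Pcdha1 went from 5.41 to 5.87 in controls (median 5.81) and from 5.60 to 6.32 in UCMS (median 5.91), a difference of 0.168 ± 0.090. Pcdha10 differed by 0.141 ± 0.079, Pcdhac1 by 0.081 ± 0.073 and Pcdhac2 by 0.095 ± 0.068. Because the rows share exons, 14 of 14 is not 14 separate measurements.

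This alpha difference changed in size with the libraries and covariates used. The library of control replicate 2 had the lowest value of its group in 14 of 14 alpha rows, with an alpha mean of 6.23 where the next lowest was 6.53. It also had the lowest mean over the 14 pan-neuronal genes (6.87), the lowest mean of the prefrontal cortex genes (4.53) and the highest mean of the 12 myelin genes (6.98) in the control group. Without it the median alpha difference was 0.0504. That median was 0.128 without UCMS replicate 6 and 0.140 without the hemoglobin-rich libraries. In both settings 2 of 57 members, Pcdha7 and Pcdha10, were at an unadjusted p under 0.05 in limma. The shares of all genes were 3.07% and 2.63%, and neither member passed the adjusted threshold. The pan-neuronal mean was 7.11 ± 0.11 in controls and 7.19 ± 0.06 in UCMS, with 12 of 14 genes numerically higher and a range over libraries of 6.87 to 7.22 and 7.07 to 7.29. With the pan-neuronal score as a covariate the median alpha difference was 0.0106. Relative to the pan-neuronal mean of the same library, the alpha mean was -0.534 ± 0.048 in controls and -0.510 ± 0.124 in UCMS. The part of the neuronal level in the result was not tested.

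**Figure D4:**
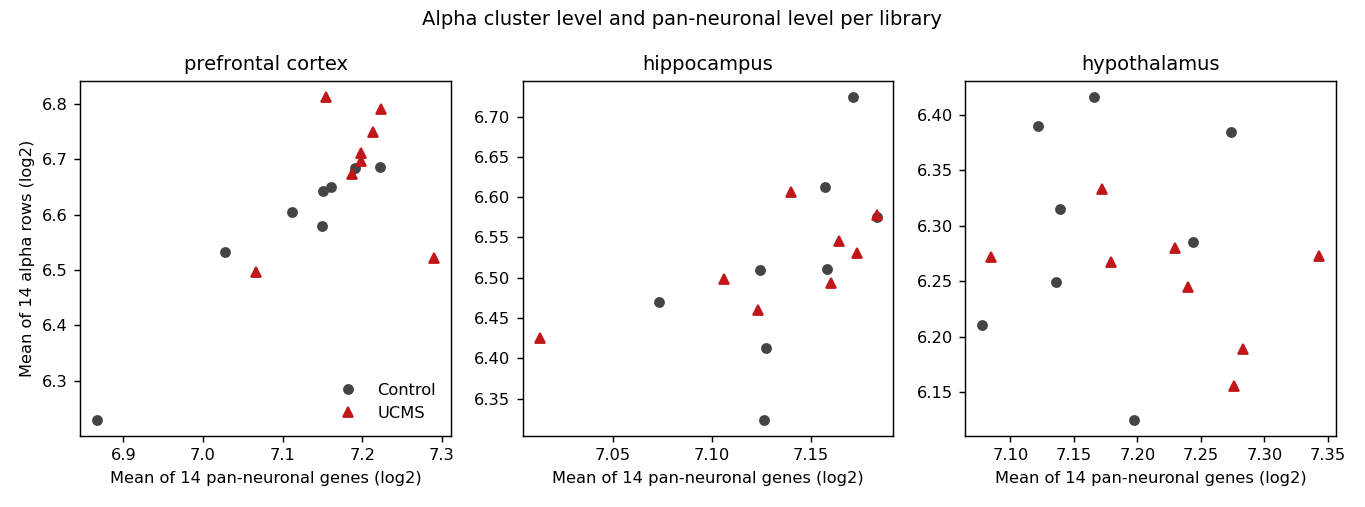
Mean of the 14 alpha rows (log2, y axis) against the mean of 14 pan-neuronal genes (log2, x axis), with 1 point per library, circles for control and triangles for UCMS, in 1 panel per region with its own axes. The prefrontal library of control replicate 2 lies at 6.87 and 6.23, below all others on both axes.

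Beta genes in prefrontal cortex were numerically lower after UCMS in 18 of 21 cases, against 48% of all genes, with a median of -0.0725 and a range from -0.205 to 0.123. Pcdhb9 ranged from 6.74 to 7.15 in controls (median 6.97) and from 6.64 to 7.09 in UCMS (median 6.91), with a difference of -0.106 ± 0.076. Pcdhb16 ranged from 7.24 to 7.75 in controls and from 6.51 to 7.68 in UCMS, a difference of -0.205 ± 0.148. Pcdhb18 differed by -0.181 ± 0.161, and its UCMS values reached from 5.53 to 7.03. The groups overlapped for all 3 genes. The UCMS library of replicate 5 had the lowest beta value of its group in 9 of 21 genes, and without it the median was -0.0261. With the pan-neuronal score as a covariate the median was -0.112. The 12 myelin genes were numerically lower in 10 cases (median -0.048) and the meningeal fibroblast genes in 4 of 4 (median -0.205). Choroid plexus genes were lower in 4 of 5 (median -0.456), and erythroid genes higher in 4 of 4 (median 0.184). The part of these cell lists in the result was not tested.

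Gamma rows in prefrontal cortex showed a median difference of 0.0072, with 14 of 22 numerically higher, against 52% of all genes. The sign of that median was not stable: it ran from -0.0228 without control replicate 1 to 0.0333 without control replicate 5. It was -0.0260 with the pan-neuronal score as a covariate. Pcdhga7 differed by 0.045 ± 0.054, Pcdhga8 by 0.047 ± 0.056 and Pcdhga2 by 0.035 ± 0.055. Among the C-type rows, Pcdhgc3 differed by 0.016 ± 0.049, Pcdhgc4 by -0.0014 ± 0.0543 and Pcdhgc5 by 0.029 ± 0.066. Each difference was smaller than its standard error.

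In hippocampus the gamma rows were numerically higher after UCMS in 22 of 22 cases, against 50.1% of all genes, with a median of 0.0671 and a range from 0.0298 to 0.092. Pcdhga2 ranged from 8.06 to 8.22 in controls (median 8.14) and from 8.05 to 8.32 in UCMS (median 8.21). Its difference was 0.077 ± 0.043 (limma adjusted p = 0.990). Pcdhgb5 differed by 0.071 ± 0.040 and Pcdhga10 by 0.086 ± 0.050. Pcdhgc3, Pcdhgc4 and Pcdhgc5 differed by 0.070 ± 0.052, 0.040 ± 0.043 and 0.066 ± 0.062. Within the UCMS group, replicate 3 was highest and replicate 6 lowest in 22 of 22 gamma rows, with gamma means of 8.47 and 8.09. Without replicate 3 the median was 0.0348, and without replicate 6 it was 0.0939.

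Beta genes in hippocampus were numerically higher in 14 cases and lower in 7 of 21, against 49.9% lower among all genes, with a median of 0.0279. That median ran from 0.0098 without UCMS replicate 2 to 0.0588 without UCMS replicate 3, and was 0.0986 with array quality weights. The 5 meningeal fibroblast genes (median -0.318), 5 choroid plexus genes (median -0.355) and 4 erythroid genes (median -0.659) were all numerically lower. Microglia genes were higher in 9 of 11 cases (median 0.075). The part of these cell lists was not tested. Pcdhb2 ranged from 5.82 to 6.32 in controls (median 6.02) and from 5.78 to 6.53 in UCMS (median 6.23). Its difference was 0.203 ± 0.099 (limma adjusted p = 0.990), with 7 of 8 UCMS animals above the control median. Pcdhb4 differed by 0.198 ± 0.140 and Pcdhb15 by 0.104 ± 0.069. The UCMS library of replicate 3, highest in every gamma row, was lowest of its group in 15 of 22 beta genes, with a beta mean of 5.95 where the other UCMS libraries had 6.21 to 6.47. Alpha rows showed a median of 0.0015, which was -0.0303 without control replicate 7, 0.0324 without control replicate 8 and -0.0400 without the hemoglobin-rich libraries. Among single rows, Pcdha12 stood at a difference of 0.028 ± 0.055, Pcdha7 at 0.023 ± 0.049, Pcdha1 at -0.026 ± 0.056, Pcdhac1 at -0.023 ± 0.060 and Pcdhac2 at 0.016 ± 0.051.

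**Figure D5:**
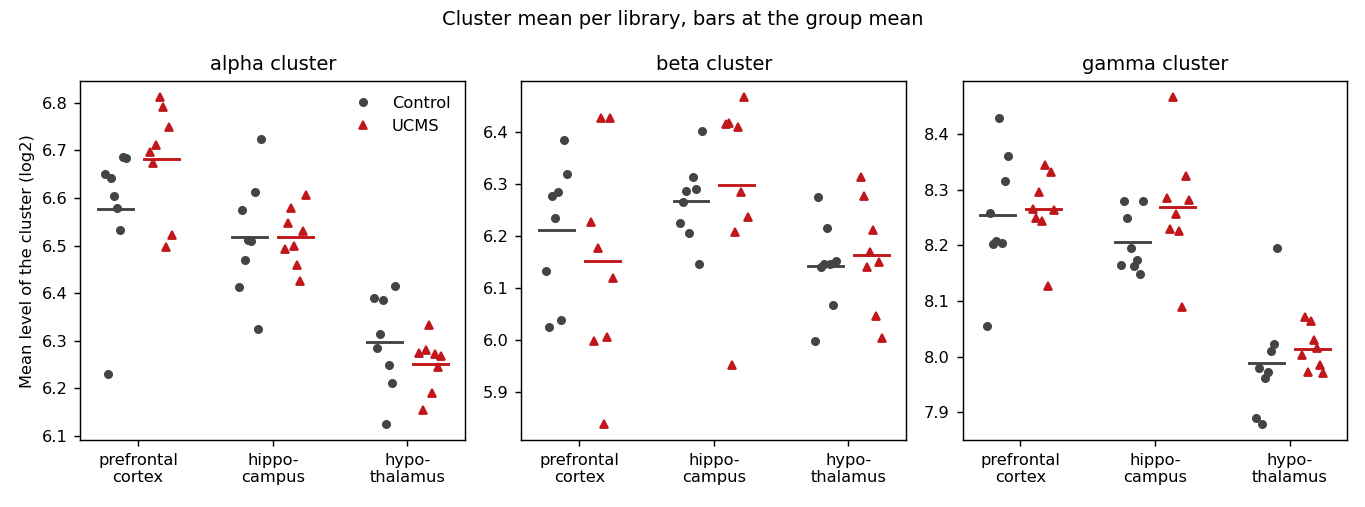
Mean level of the alpha, beta and gamma arrays (log2, y axis) per library, with control as circles, UCMS as triangles and bars at group means, by region on the x axis. Each panel has its own y axis, and Pcdhb1 is left out of the beta mean. The hippocampal UCMS library at 8.47 in gamma is the one at 5.95 in beta.

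In hypothalamus the alpha rows were numerically lower after UCMS in 14 of 14 cases, against 49.5% of all genes, with a median of -0.0476 and a range from -0.0958 to -0.0083. Pcdha8 ranged from 5.80 to 6.18 in controls (median 5.98) and from 5.82 to 6.02 in UCMS (median 5.89). Its difference was -0.096 ± 0.051 (limma adjusted p = 0.99999). Pcdha6 differed by -0.066 ± 0.042, Pcdha1 by -0.079 ± 0.052, Pcdhac1 by -0.028 ± 0.040 and Pcdhac2 by -0.050 ± 0.050. Without control replicate 8 the median was -0.0308, and without control replicate 5 it was -0.0709. Across the alternatives other than leaving out single libraries, the pan-neuronal covariate among them, it ran from -0.0560 to -0.0476. The 14 pan-neuronal genes were all numerically higher, with a median of 0.044. The myelin genes were numerically lower in 11 of 12 cases (median -0.063) and the meningeal fibroblast genes higher in 6 of 6 (median 0.380). The part of these cell lists in the alpha, beta and gamma differences was not tested. Relative to the pan-neuronal mean of the same library, the hypothalamic alpha mean was -0.873 ± 0.110 in controls and -0.974 ± 0.116 in UCMS. Whether the alpha difference varies between regions was not tested.

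Pcdhb7 in hypothalamus was the single member at an unadjusted p under 0.05. Its level ranged from 6.09 to 6.42 in controls (median 6.30) and from 5.99 to 6.34 in UCMS (median 6.14), and the groups overlapped. The difference was -0.135 ± 0.056 (limma adjusted p = 0.99999), with 1 of 8 UCMS animals above the control median. In the other regions Pcdhb7 differed by -0.090 ± 0.086 in prefrontal cortex and by -0.095 ± 0.087 in hippocampus. The number of hypothalamic members at that unadjusted level fell to 0 without control replicate 3 or 6, or without UCMS replicate 1, 3 or 8. The share of all genes there was 2.05% to 2.37%. With the pan-neuronal score as a covariate the number was 0 of 58 as well, against 2.85% of all genes. It was 4 of 58 (6.9%) without control replicate 8, 3 of them gamma rows, against 2.3% of all genes. Pcdhb5 differed by -0.125 ± 0.072 and Pcdhb2 by 0.115 ± 0.072 in hypothalamus. Over the array, 17 of 22 beta genes were numerically higher, against 50.5% of all genes, with a median of 0.0398. That median became -0.0293 with the pan-neuronal score as a covariate. It ran from 0.0122 without UCMS replicate 1 to 0.0696 without control replicate 2.

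Gamma rows in hypothalamus were numerically higher in 22 of 22 cases, against 50.5% of all genes, with a median of 0.0219. Pcdhga10 differed by 0.047 ± 0.041, Pcdhga8 by 0.043 ± 0.041 and Pcdhga11 by 0.047 ± 0.045. Pcdhgc3, Pcdhgc4 and Pcdhgc5 differed by 0.017 ± 0.041, 0.019 ± 0.058 and 0.016 ± 0.062. The control library of replicate 8 was the highest of its group in 22 of 22 gamma rows, and without it the median was 0.0557, while it was 0.0074 without control replicate 3. The position of Pcdhgc4 relative to the median gamma row was -0.493 ± 0.066 in controls and -0.501 ± 0.053 in UCMS, and it was 0.197 ± 0.061 in prefrontal cortex and 0.178 ± 0.022 in hippocampus of UCMS animals.

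Genes that act with the clustered protocadherins gave no adjusted call in any region. For the direction counts that follow, 52%, 50.1% and 50.5% of all genes were numerically higher in prefrontal cortex, hippocampus and hypothalamus. The shares numerically lower were 48%, 49.9% and 49.5%. Of the 11 looping genes (CTCF, cohesin and its regulators), 9 were numerically lower for prefrontal cortex, 7 for hippocampus and 3 for hypothalamus. The cohesin subunit Rad21 differed by -0.087 ± 0.056 in prefrontal cortex, the cohesin loader Mau2 by 0.085 ± 0.060 in hippocampus and the cohesin subunit Stag2 by -0.065 ± 0.039 in hypothalamus. Of the promoter silencing genes, 7 of 12, 8 of 12 and 6 of 12 were numerically higher in the same order of regions. Lrif1, a partner of the silencing protein Smchd1, differed by -0.263 ± 0.179 in prefrontal cortex. The maintenance DNA methyltransferase gene Dnmt1 differed by 0.084 ± 0.054 in hippocampus.

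Of 17 intracellular partners, 1 was at an unadjusted p under 0.05 in prefrontal cortex, where 2.18% of all genes were. This gene, Abi1, a subunit of the WAVE complex that drives actin branching, differed by 0.088 ± 0.041 (limma adjusted p = 0.987), and 10 of 17 genes were numerically higher. Another subunit gene of that complex, Brk1, differed by -0.104 ± 0.042 in hippocampus (limma adjusted p = 0.990), where 9 of 17 were higher, and by -0.106 ± 0.064 in hypothalamus, where 6 of 18 were. Of the 7 genes for protocadherin shedding, 5, 4 and 3 were numerically higher. The gamma-secretase subunit genes Aph1b, Psen2 and Psenen differed by -0.163 ± 0.083 for prefrontal cortex, 0.095 ± 0.078 for hippocampus and -0.060 ± 0.047 for hypothalamus.

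Of the nonclustered protocadherins, 4 of 11, 6 of 11 and 3 of 11 were numerically higher. Pcdh10 differed by 0.090 ± 0.078 in prefrontal cortex, and Pcdh8 by 0.163 ± 0.089 in hippocampus and by -0.130 ± 0.143 in hypothalamus. Of 19 other synaptic adhesion genes, 14, 15 and 14 were numerically higher. The cell recognition gene Dscam differed by 0.123 ± 0.075 in prefrontal cortex, Cadm2 by 0.092 ± 0.041 in hippocampus (limma adjusted p = 0.990) and L1cam by 0.103 ± 0.065 in hypothalamus.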

How the data were processed

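Values were log2 (base inferred from their range) in 1 table per tissue, deposited by the authors and, from the values, quantile-normalised within each table: 88.7% to 89.4% of ranks in the brain tables agreed between libraries within 0.002. Libraries were directional and depleted of ribosomal RNA, per the labels' protocols. The submitters' processing notes name the build GRCm38.p4, with no role given. Aligner, counter, annotation and any use of strand: not given in the sources used here. Depth is unknown, so no counting interval is given. The labels tie libraries to animals, and the p-values measure spread between animals.

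All genes of a region were fitted together with limma 3.58.1 (R 4.3.3; trended prior variance, two-sided) after leaving out the 10% of genes with the lowest mean, and adjusted by Benjamini-Hochberg at 0.05. The fit was run on simulated data, with genes drawn independently and planted changes larger than any difference tested among the members. That run does not show the power for the members. Regions were described without a test. Lists are given by counts and medians. The members and lists were chosen with earlier results of these data known. All 58 members matched RefSeq by Entrez number and symbol, and exon lengths came from GENCODE M21. Level per kilobase is the log2 value minus log2 of exonic kilobases. Figures were drawn with matplotlib 3.10.9 in Python 3.11.15.

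Genes named were, per region and array, those past the threshold, the 3 with the smallest unadjusted p, all C-type members, the 2 highest and 2 lowest in controls and, of each context list, the gene with the smallest p. A result that this rule names for the promoter silencing list in hypothalamus is not reported here. Pcdha2, Pcdha3, Pcdhb4, Pcdhb13, Pcdhb18, Pcdhb22 and Pcdhga9, the per-kilobase extremes and the values of a named gene in other regions were added after the values were seen. Alternatives were no filter or a 25% filter, no trend, array quality weights and the replicate number as a block. Others were each library left out, hemoglobin-rich libraries (Hbb-bs above 12) left out, and a pan-neuronal or myelin score as a covariate. A score is the mean of the list's genes, each first scaled over the libraries of its region.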

Additional observations from a re-analysis of the deposited data

Results flagged for a closer look

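In 24 of 154 groups of 8 libraries, 1 library stood apart from the nearest of the others by a larger part of the group's range than Dixon's critical value for 8 values. Chance flags about 1 in 20 groups, and alpha and gamma rows share exons, so flags within an array are not separate events. Values are log2 levels.

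In prefrontal cortex, control replicate 2 was lowest by this measure for Pcdha1 (5.412), Pcdha4 (6.395), Pcdha7 (6.31), Pcdha8 (5.977), Pcdha10 (6.317), Pcdha12 (6.668), Pcdhac1 (6.368) and Pcdhac2 (6.231), and for the alpha mean (6.23). UCMS replicate 6 was lowest there for Pcdhga7 (8.377) and the gamma mean (8.126), and UCMS replicate 7 was highest for Pcdhb8 (5.826).

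In hippocampus, UCMS replicate 3 was lowest for Pcdhb16 (6.847) and highest for Pcdhgb1 (8.139) and Pcdhgc3 (8.394). UCMS replicate 6 was lowest for Pcdhb1 (0.661, the next value being 2.28), and UCMS replicate 5 was highest for Pcdhb6 (5.392).

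In hypothalamus, control replicate 8 was highest for Pcdhga4 (8.67), Pcdhga7 (8.537), Pcdhga10 (8.262), Pcdhgb1 (7.748) and the gamma mean (8.194). Control replicate 2 was highest for Pcdhb17 (7.635), and UCMS replicate 2 was lowest for Pcdha1 (5.266).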

How the results depend on the processing

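Of 1440 alternative values for 60 results, 1388 kept their direction and side of the threshold or stayed within 1 SD, or, for counts, within 1.5 times; 26 unadjusted counts moved further and 26 differences of single members changed sign, none of them called. The adjusted count stayed at 0 in every region under all alternatives run. In hippocampus the unadjusted count went from 414 to 927 genes (12 of 57 members) with array quality weights and to 688 (9 members) without UCMS replicate 6. It held 7 members (570 genes) with the pan-neuronal covariate, 3 (583 genes) without UCMS replicate 3, and 1 without control replicate 3 or 4, UCMS replicate 4 or the hemoglobin-rich libraries (352 to 515 genes). In prefrontal cortex it held 2 members (3.51%), both alpha rows, without UCMS replicate 6 or 8 or the hemoglobin-rich libraries. There 1.93% to 3.07% of genes were counted. In hypothalamus it was 540 genes (2 members) with the myelin covariate. In prefrontal cortex the sign changed for Pcdhgc5 with quality weights (-0.00449) and for Pcdhgc3 without hemoglobin-rich libraries (-0.0013). With the pan-neuronal covariate it changed there for Pcdhga7 (-0.0013), Pcdhac1 (-0.0107) and Pcdhgc5 (-0.0417). In hippocampus it changed without hemoglobin-rich libraries for Pcdha7 (-0.0060) and Pcdhac2 (-0.0060). The causes were not tested. Leaving out 1 library gave ranges across 0 for Pcdhgc3 (-0.0083 to 0.0364), Pcdhgc4 (-0.0292 to 0.0195) and Pcdhgc5 (-0.0050 to 0.0634) in prefrontal cortex. The same held in hippocampus for Pcdha1 (-0.0501 to 0.0032), Pcdhac1 (-0.0551 to 0.0128) and Pcdhac2 (-0.0084 to 0.0383), and in hypothalamus for Pcdhgc4 (-0.0030 to 0.0594) and Pcdhgc5 (-0.0105 to 0.0449). Replicate numbers are shared between groups but belong to different animals: same-numbered libraries correlated over 0.1 in 6, 3 and 3 of 8 pairs, and with the number as a block the adjusted count was 0 in each region and the alpha median in prefrontal cortex 0.0988.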
